A study of Homo sapiens with 6 samples.

Results

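The transcripts of 9 genes of the PI3K and AKT pathway were followed in C4-2 cells treated with androgen at a supraphysiological level (SAL). The genes are the PI3K catalytic subunits PIK3CA and PIK3CB, the regulatory subunits PIK3R1 and PIK3R3, the kinase AKT1, the lipid phosphatase INPP4B, the AKT phosphatases PHLPP1 and PHLPP2, and the mTOR inhibitor DEPTOR. They were taken as the rows with these symbols, chosen for their role in the pathway but with earlier results of these data known, and make up 9 of the 55765 gene symbols counted. All 9 had enough reads to be tested.

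C4-2 is a castration-resistant subline of the androgen-sensitive human prostate cancer line LNCaP. RNA-seq was analysed for 6 cultures of it, of which 3 received the solvent DMSO and 3 received 1 nM of the synthetic androgen R1881 (methyltrienolone) for 72 h. The 3 DMSO and 3 SAL libraries carry the replicate numbers 1 to 3 and were compared within each number. All of them were grown in DMEM with fetal bovine serum, and both groups are the same single cell line in culture, so the comparison covers one genetic background.

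Class I PI3K, a dimer of a catalytic and a regulatory subunit, phosphorylates the membrane lipid PIP2 to PIP3, which recruits AKT to the membrane for activation. Lipid phosphatases act against the kinase, INPP4B on the lipid PI(3,4)P2, and the PHLPP phosphatases take a phosphate off AKT itself. Downstream of AKT lies mTOR, which DEPTOR binds and inhibits. In prostate cancer the pathway is known for reciprocal feedback with the androgen receptor.

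Between 6931042 and 9776990 reads per library fell on genes after the removal of ribosomal RNA genes, which had taken 11.9% to 27.8% of the gene counts. Markers of luminal prostate epithelium were present in every library, with all 10 of 10 counted and a summed level of 2807 to 5315 CPM (the count of a gene relative to the scaled total of its library) in DMSO and 5094 to 10354 in SAL. Of the luminal markers 6 were up-regulated, several of them known androgen targets, and the part of this rise in the results was not tested. Markers of other cell types were low. The highest sum in any library was 1.11 CPM for basal epithelium, 12.4 for fibroblasts, 0.668 for immune cells, 3.95 for endothelium and 6.02 for neuroendocrine cells, and KRT5, COL1A2, PTPRC, CD3E, ITGAM and CDH5 had no read at all. KLK3, which encodes prostate-specific antigen and is a textbook androgen target, read 587, 1200 and 612 CPM in DMSO and 1482, 2535 and 1411 in SAL, a log2 fold change of 1.21.

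SAL up-regulated 1 of the 9 genes and down-regulated 3, and 5 did not pass the test (edgeR's quasi-likelihood test with the replicate number as a block, adjusted p under 0.05 over all genes tested). INPP4B rose to 4.31 times its DMSO level, while DEPTOR fell to 0.444, PIK3R1 to 0.604 and PIK3R3 to 0.773 times theirs. Among all 16835 genes tested, 11.5% were up-regulated and 9.37% were down-regulated. The up-regulated share of the 9 genes was 11.1%, close to that background, and the down-regulated share was 33.3%, which rests on 3 genes chosen with such results known and is a description only. The median log2 fold change was 0.01 over the 9 genes, and it was 0.00 over all genes tested. In bulk RNA, fewer cells expressing a gene and less of its RNA per cell cannot be told apart.

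**Figure D1:**
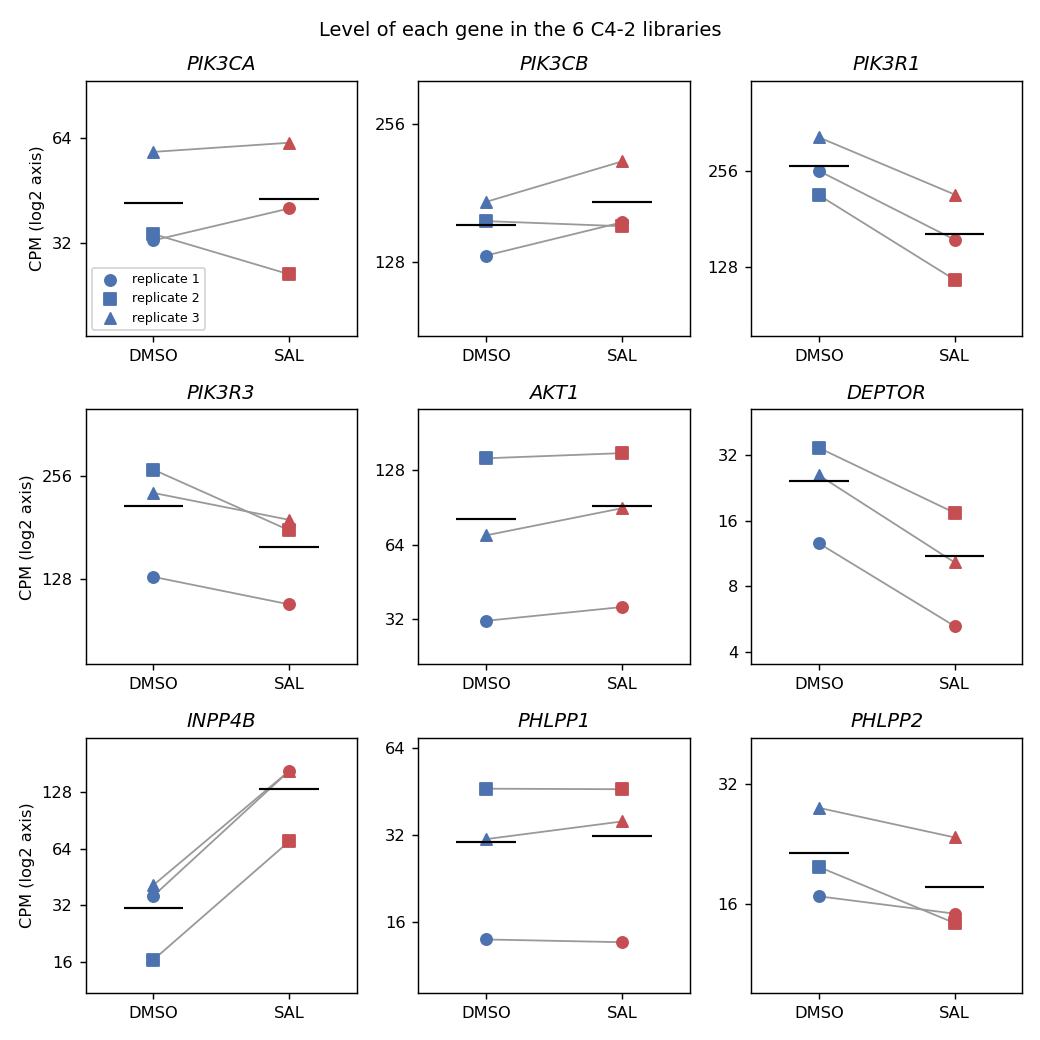
Level of each of the 9 genes in CPM (log axis) in every library, with lines joining the DMSO and SAL library of the same replicate number. INPP4B is the 1 gene whose SAL libraries (70.0 to 166 CPM) all lie above its DMSO libraries (16.4 to 41.0 CPM), while the other panels show overlapping groups.

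The groups of libraries overlapped for 8 of the 9 genes. INPP4B was the exception, with every SAL library above every DMSO library, a pattern that 3.78% of all genes tested showed. The opposite order, found in 3.73% of all genes tested, occurred for 0 of the 9. The replicate numbers differed widely in level, so most of the changes below show within a number and not between the groups as wholes.

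The catalytic subunits carry the lipid kinase activity. PIK3CA, which encodes p110α and is on chromosome 3 from 178865902 to 178957881 on the plus strand (GRCh37), read 32.6, 34.0 and 58.3 CPM in DMSO and 40.2, 26.1 and 61.9 CPM in SAL. Its replicates moved in different directions, with log2 changes of 0.30, -0.38 and 0.09. The fitted log2 fold change was 0.01 (SE 0.129), with a 95% interval from -0.27 to 0.29 and an adjusted p of 0.967. The interval leaves room for a change of that size in either direction. Of its exon bases, 19.8% are shared with KCNMB3 on the opposite strand, and because reads were counted without strand the genes cannot be told apart there.

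PIK3CB encodes p110β, a catalytic isoform that also takes signals from G protein-coupled receptors. The gene is on chromosome 3 from 138371540 to 138553770 on the minus strand. It read 132, 157 and 173 CPM in DMSO and 156, 153 and 212 CPM in SAL. The SAL library was the higher in replicates 1 and 3 and slightly the lower in replicate 2. The log2 fold change was 0.16 (SE 0.0977, 95% interval -0.05 to 0.37, adjusted p = 0.285), and it did not pass the test. Set against each other within a library, as counts per kilobase of exon, PIK3CA stood at 0.121 ± 0.0284 (SD, n = 3) of PIK3CB in DMSO and at 0.11 ± 0.0285 in SAL. The difference in this ratio, -0.16 on the log2 scale, was within the spread of the libraries (two-sided exact permutation test, p = 0.7, adjusted p = 0.7 over 4 ratios).

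The regulatory subunits hold the catalytic ones stable and bring them to phosphorylated receptors. PIK3R1, the gene of p85α, is on chromosome 5 from 67511568 to 67597649 on the plus strand and was down-regulated in each replicate. It read 256, 215 and 326 CPM in DMSO and 156, 117 and 216 CPM in SAL. The lowest DMSO library and the highest SAL library meet at nearly the same level, but within each number SAL was the lower, by -0.72, -0.87 and -0.59 on the log2 scale. This gave a log2 fold change of -0.73 (SE 0.0945, 95% interval -0.93 to -0.52, adjusted p = 4.99e-05).

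PIK3R3 encodes p55γ, a shorter regulatory subunit, and is on chromosome 1 from 46505812 to 46598708 on the minus strand. It read 130, 268 and 229 CPM in DMSO and 108, 178 and 191 CPM in SAL. The pairs changed by -0.26, -0.58 and -0.26, so the fall was largest in replicate 2. The log2 fold change of -0.37 (SE 0.0983, adjusted p = 0.0136) was the weakest of the 4 calls. It was lost without replicate 2 (-0.28, adjusted p = 0.0685) and without replicate 3 (-0.42, adjusted p = 0.171). Of the exon bases, 17.5% are shared with the readthrough gene P3R3URF-PIK3R3 on the same strand, so the counts of these genes are uncertain.

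Both regulatory subunits fell, and a change in the balance between them could not be shown with 3 libraries per group. PIK3R1 over PIK3R3, in counts per kilobase of exon, was 0.895, 0.364 and 0.644 in DMSO and 0.652, 0.298 and 0.512 in SAL. With the length of the canonical transcript, PIK3R1 was the higher in both libraries of replicate 1 and the DMSO library of replicate 3. PIK3R1 was still the lower in the remaining libraries, so which subunit is the higher depends on the length used. The ratio was lower in SAL in all 3 pairs, by -0.46, -0.29 and -0.33 on the log2 scale. An exact permutation test between the groups gave p = 0.6 (adjusted p = 0.7), and a sign-flip test within pairs gave p = 0.25, the smallest that 3 pairs allow.

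The promoter windows of 8 genes, all but DEPTOR, were searched on both strands for the half-site of the androgen response element, AGAACA. These are RefSeq windows from 250 bases before to 50 after each annotated start. It occurred in 2 of 4 PIK3R1 windows and 3 of 6 PIK3R3 windows, some of which overlap, in 0 windows of the other 6 genes searched, and so in 5 of 23 windows in all. Of all 35116 windows 14.8% hold it. The distinct matches are shown 5′ to 3′ on the strand of the gene, with the half-site in capitals, and their GRCh37 positions are chr5:67586255-67586284 and chr5:67588434-67588454 for PIK3R1 on the plus strand and chr1:46598465-46598494 and chr1:46640558-46640587 for PIK3R3 on the minus strand.
PIK3R1 first site: actcgctgctggAGAACAgtcaaattaaac
PIK3R1 second site: tggcactgcctaAGAACAgag
PIK3R3 first site: gctttttgaacaTGTTCTcaggcacttgac
PIK3R3 second site: gcctaaaggaggAGAACAtggagaagggtg
Only the first PIK3R3 site lies in the window of a canonical start. The PIK3R1 sites belong to annotated starts 74908 and 76821 bp from the canonical one, whose own window has no match, and the second PIK3R3 site to a start 42272 bp from the canonical one, outside the interval given for the gene. Each is a match of 6 letters only, not a measured binding site. The full androgen response element, the half-site and its inverted copy with 3 bases between them, was in 0 of the 23 windows of the 8 genes searched and in 0.00285% of all windows.

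AKT1 encodes the kinase on which the pathway converges and is on chromosome 14 from 105235686 to 105262088 on the minus strand. It read 31.6, 143 and 69.9 CPM in DMSO and 35.9, 150 and 89.9 CPM in SAL. The SAL library was the higher in each pair, by 0.18, 0.07 and 0.36 on the log2 scale. The log2 fold change of 0.20 (SE 0.10, 95% interval -0.01 to 0.42, adjusted p = 0.181) did not pass the test. The replicate number accounted for far more than the treatment, with 98.2% of the sum of squares of log2 CPM against 1.36%.

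INPP4B, which removes a phosphate from PI(3,4)P2 and is known as a suppressor of AKT signalling in prostate, showed the largest change of the 9 genes. It is on chromosome 4 from 142944313 to 143768585 on the minus strand. It read 290, 120 and 307 reads in DMSO and 1298, 638 and 1351 reads in SAL, which is 35.9, 16.4 and 41.0 CPM against 166, 70.0 and 166 CPM. Replicate 2 was the lowest library of both groups, and its SAL library still lay above every DMSO library. The means were 31.1 ± 13 CPM (SD, n = 3) in DMSO and 134 ± 55.7 CPM in SAL. The pairs rose by 2.20, 2.07 and 2.01 on the log2 scale, a closer spread than that of the levels. The fitted log2 fold change was 2.11 (SE 0.102, 95% interval 1.89 to 2.33, adjusted p = 1.50e-09), and it lay between 2.05 and 2.15 in every alternative run. Without the replicate block the adjusted p was 0.368.

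The 250 bases before the annotated start of the INPP4B canonical transcript, chr4:143767455-143767704 in GRCh37 on the minus strand, are shown for the gene with the largest change. The sequence is written 5′ to 3′ on the strand of the gene, with the letters of a TATA box, TATAAA, in capitals.
INPP4B promoter: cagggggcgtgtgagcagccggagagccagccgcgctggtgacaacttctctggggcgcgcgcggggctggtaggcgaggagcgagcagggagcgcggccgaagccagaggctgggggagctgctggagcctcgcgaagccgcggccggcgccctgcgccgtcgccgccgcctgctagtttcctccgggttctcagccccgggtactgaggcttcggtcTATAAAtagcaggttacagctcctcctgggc
The stretch is rich in G and C, at 70.8%, while the exons of the gene have 37.5%. The letters TATAAA, searched on both strands, were found in 3 of the 6 INPP4B windows and in 11.5% of all windows. Among the 3, the windows of the starts 540357 and 540469 bp from the canonical one overlap and may hold the same match. The androgen half-site AGAACA was in 0 of the 6, which says only that these letters are not in these windows.

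INPP4B was also set against PIK3CA, the phosphatase against the kinase subunit, within each library. In counts per kilobase of exon the ratio was 1.30, 0.569 and 0.831 in DMSO and 4.88, 3.16 and 3.18 in SAL. The ratio was higher in every SAL library than in any DMSO library. The log2 difference of 2.11 had an exact permutation p of 0.1, the smallest that 3 libraries against 3 allow (adjusted p = 0.4), so the test could not pass the threshold. PIK3CA hardly changed, so this difference is nearly that of INPP4B alone. The other catalytic subunit, PIK3CB, stayed above INPP4B, at 19.7 against 2.14 CPM per kilobase of exon in DMSO and 22.1 against 9.22 in SAL.

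**Figure D2:**
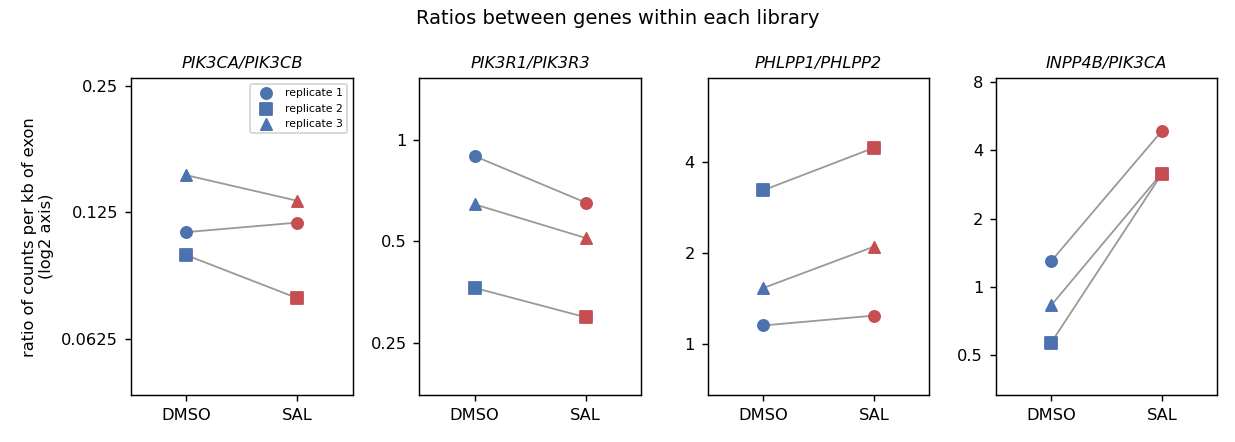
Ratios of counts per kilobase of exon (log axis) for 4 pairs of genes in each library, with lines joining libraries of the same replicate number. INPP4B over PIK3CA moves from 0.569 to 1.30 in DMSO to 3.16 to 4.88 in SAL, and the other 3 ratios overlap between the groups.

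PHLPP1 and PHLPP2 remove the activating phosphate from the hydrophobic motif of AKT. PHLPP1, on chromosome 18 from 60382774 to 60647666 on the plus strand, read 13.9, 46.4 and 31.0 CPM in DMSO and 13.6, 46.2 and 35.7 CPM in SAL. Its levels in replicates 1 and 2 were nearly the same with and without SAL. The fit gave 0.06 on the log2 scale (SE 0.121, 95% interval -0.20 to 0.32, adjusted p = 0.775).

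PHLPP2, on chromosome 16 from 71671738 to 71758604 on the minus strand, read 16.7, 19.8 and 27.9 CPM in DMSO and 15.1, 14.3 and 23.5 CPM in SAL. The SAL library was the lower in each pair, with log2 changes of -0.14, -0.47 and -0.24. The log2 fold change of -0.29 (SE 0.143, 95% interval -0.59 to 0.01, adjusted p = 0.177) did not pass the test. PHLPP2 shares 11.0% of its exon bases with other genes, MARVELD3 on the opposite strand among them. The ratio of PHLPP1 to PHLPP2 per kilobase of exon was 1.97 ± 1.11 (SD, n = 3) in DMSO and 2.60 ± 1.67 in SAL, a log2 difference of 0.35 (exact permutation p = 0.6, adjusted p = 0.7). The 3 pairs had log2 differences of 0.115, 0.470 and 0.452, and the sign-flip test within pairs again gave the smallest p it allows, 0.25.

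DEPTOR binds mTOR in both of its complexes and inhibits it. It read 12.6, 34.6 and 25.9 CPM in DMSO and 5.25, 17.4 and 10.3 CPM in SAL, from between 41 and 253 reads per library. Replicate 1 was the lowest in both groups, and its DMSO library lay below the SAL library of replicate 2. Within the pairs SAL was lower by -1.23, -0.98 and -1.30 on the log2 scale. The fit gave a log2 fold change of -1.17 (SE 0.154, 95% interval -1.5 to -0.84, adjusted p = 5.52e-05), the largest fall of the 9. DEPTOR shares 9.59% of its exon bases with the antisense gene DEPTOR-AS1.

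**Figure D3:**
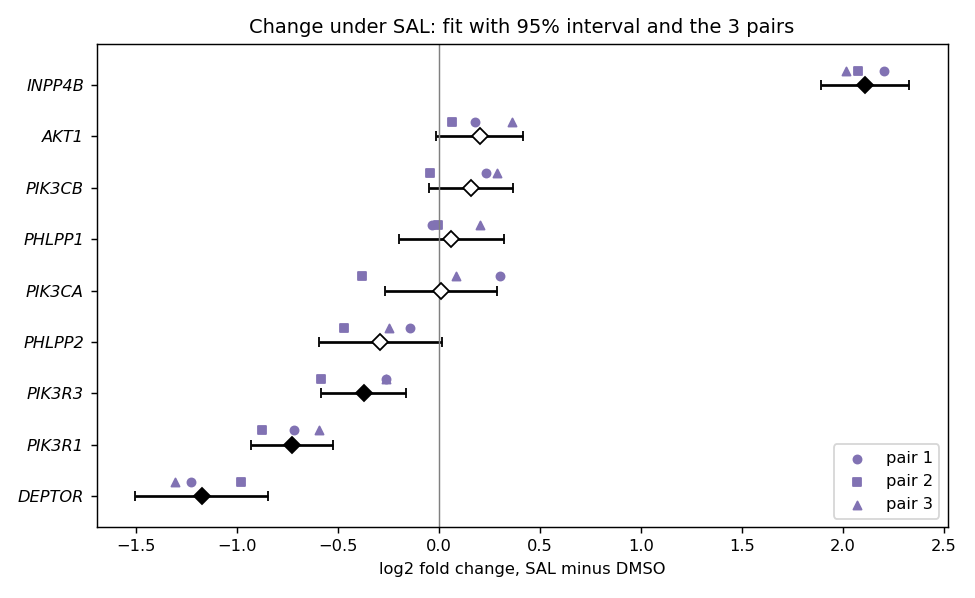
Log2 fold change of SAL against DMSO for each of the 9 genes, with the 95% interval as a bar and the 3 replicate pairs as points. INPP4B lies at 2.11 and DEPTOR, PIK3R1 and PIK3R3 lie at -1.17, -0.73 and -0.37, while the intervals of the other 5 genes cross 0.

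The calls were also computed with DESeq2 and the same block, which called the same 4 genes in the same directions, with adjusted p of 2.58e-47 for INPP4B, 4.08e-08 for PIK3R1, 1.65e-05 for DEPTOR and 0.0305 for PIK3R3. DESeq2 called 7.64% of 17607 genes up-regulated and 4.78% down-regulated. Without the replicate block, edgeR called 0 of the 9 genes and 0.125% of all genes tested in either direction. At an unadjusted p under 0.05, 1 of the 9 passed without the block, INPP4B at 0.00334.

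Across the 9 genes the level per length changed order with SAL. In CPM per kilobase of all annotated exons, PIK3R3 was the highest in DMSO at 28.2 ± 9.62 (SD, n = 3), followed by PIK3CB at 19.7 ± 2.64 and PIK3R1 at 16.3 ± 3.43. PHLPP2 was the lowest at 1.72 ± 0.463, with INPP4B at 2.14 ± 0.892 and PIK3CA at 2.42 ± 0.839 above it. These neighbours in the order did not differ beyond their spread. In SAL, INPP4B stood at 9.22 ± 3.82, rank 4 in place of rank 8, beside PIK3R1 at 9.98 ± 3.05, which its spread does not separate from it. DEPTOR went from 9.28 ± 4.21 to 4.19 ± 2.33. The order depends on the length used, and with that of the canonical transcript INPP4B went from rank 8 to rank 5.

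The spread between replicate numbers differed from gene to gene. For PHLPP1 the replicate number took 99.3% of the sum of squares of log2 CPM and the treatment 0.142%, and for INPP4B 23.5% and 76.4%. PIK3R1 was the other gene with the larger share on the treatment, 58.2%, while DEPTOR had 44.9% and PIK3R3 16.9%. Over all genes tested the median was 85.4% for the replicate number and 5.88% for the treatment. Replicate 2 was higher than replicate 1 by 2.17 on the log2 scale for AKT1 in DMSO and by 2.05 in SAL, and for INPP4B it was lower, at -1.12 and -1.25.

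This difference between replicates went with base composition. AKT1 has exons of 62.4% GC and INPP4B of 37.5%. Across the 14133 genes tested with a known GC content, the log2 difference between replicates 2 and 1 had a Pearson r with GC of 0.577 in DMSO and 0.689 in SAL, given as a description since genes share their library. The r of GC with the log2 fold change of SAL was 0.083. The part of base composition in the changes of the 9 genes was not tested.

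**Figure D4:**
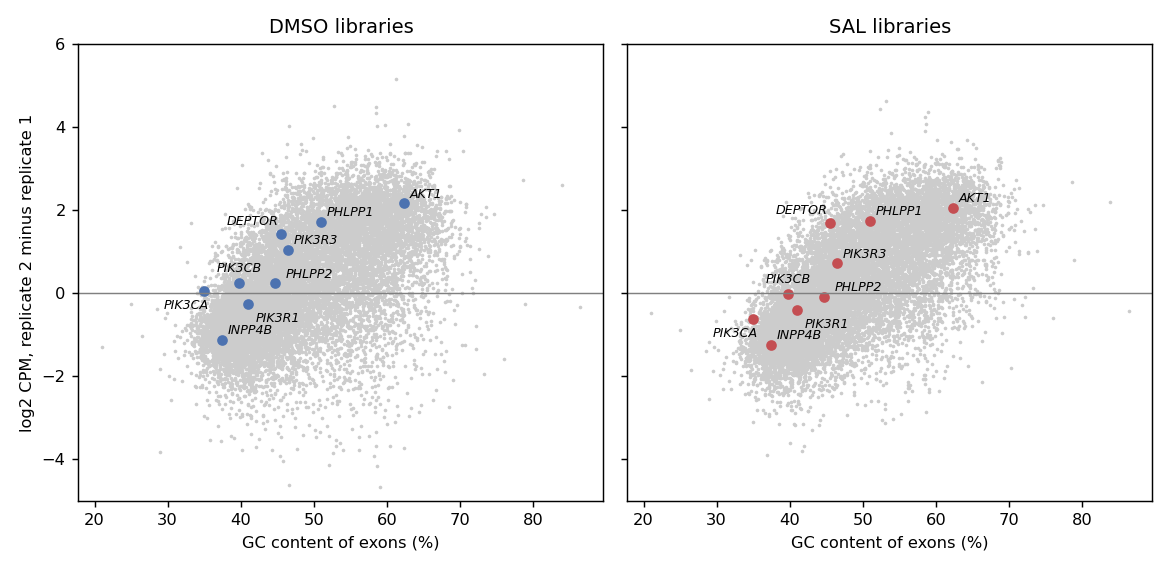
Difference in log2 CPM between replicate 2 and replicate 1 against the GC content of the exons (%), in the DMSO and the SAL libraries, for all genes tested with a known GC content (grey) and the 9 genes (coloured). AKT1 at 62.4% GC lies near 2 in both panels, and INPP4B at 37.5% GC lies at -1.12 and -1.25.

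The other genes of the pathway were taken from 13 lists of 152 further genes, of which 136 were tested. SAL up-regulated 28 of them (20.6%) and down-regulated 15 (11%), and 93 did not pass the test. Their median log2 fold change was 0.00. The shares over all genes tested were 11.5% and 9.37%, so the down-regulated share was near the background. Without replicate 3 the counts were 14 and 3. Among the calls lost then were those of PIK3CD, BECN1, ERBB3, INPP5J, OCRL, PDPK1, PPP2CB, PPP1CC, CDC37, TTI1, TSC2 and DDIT4. The 3 down-regulated genes left were SESN3, GRB10 and SKP2, so every other down-regulated one of the 136 lost its call. DESeq2 with the block called 25 up-regulated and 8 down-regulated, and edgeR without the block 1 and 0. The lists overlap in a few genes and were drawn up with earlier results known, so these shares describe the lists only.

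**Figure D5:**
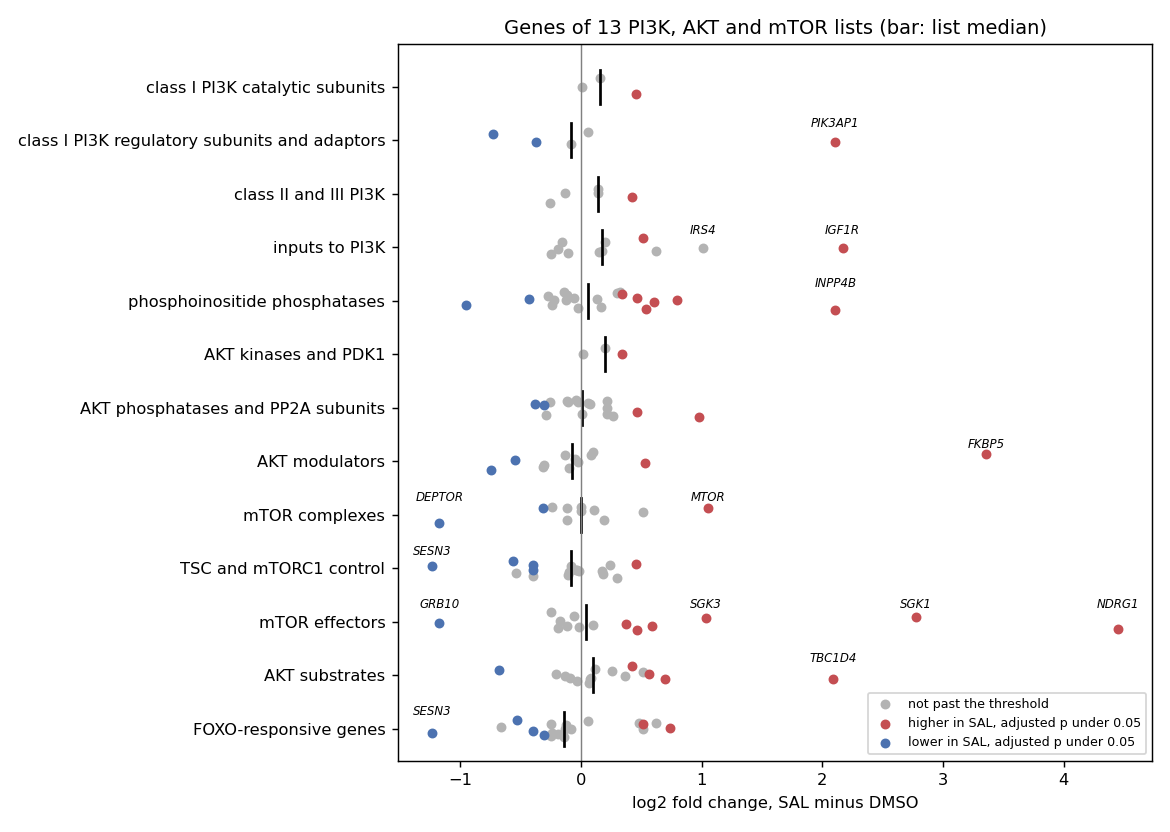
Log2 fold change of SAL against DMSO for each tested gene of the 13 pathway lists, with called genes in colour and the median of each list as a line. NDRG1 at 4.45 and FKBP5 at 3.36 lie farthest to the right, and most genes lie near 0.

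In the lists of inputs, catalytic subunits, regulatory subunits with adaptors, and class II and III PI3K, 5 further genes passed the test. All 5 were higher in SAL, while the members PIK3R1 and PIK3R3 of these lists were lower. Over all genes tested 11.5% were up-regulated and 9.37% down-regulated. The counts per list, here and below, are descriptions to be read beside these shares. IGF1R, the receptor of insulin-like growth factors, read 8.42, 70.3 and 59.2 CPM in DMSO and 48.3, 280 and 260 CPM in SAL, and rose by 2.17 on the log2 scale (adjusted p = 3.25e-09). With ERBB3 (0.51, adjusted p = 0.00135), a receptor that binds PI3K directly, it was 1 of 2 called among 11 inputs. PIK3CD, the gene of p110δ, was the 1 called of 3 tested class I catalytic subunits, with a log2 fold change of 0.45 (adjusted p = 0.00646). Of 5 regulatory subunits and adaptors, PIK3AP1, an adaptor that links receptors to PI3K, rose from 5.95, 32.8 and 20.2 CPM to 31.0, 120 and 93.0 CPM (2.11, adjusted p = 9.53e-09), and PIK3R1 and PIK3R3 fell. PIK3R2, the gene of p85β, stood at 0.06 on the log2 scale (adjusted p = 0.732) and did not pass. Of 5 genes of class II and III PI3K, BECN1, a partner of the class III enzyme in autophagy, rose by 0.43 (adjusted p = 0.00469).

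Of 20 tested phosphoinositide phosphatases 6 rose and 2 fell, and the median log2 fold change was 0.06. INPP5J, which takes the 5-phosphate off phosphoinositides, fell by 0.95 on the log2 scale (adjusted p = 0.000574) and INPP5B by 0.43 (adjusted p = 0.0302). Beside INPP4B, OCRL rose by 0.61 (adjusted p = 0.000792) and SYNJ1, a synaptojanin of membrane traffic, by 0.79 (adjusted p = 0.00092). The other 3 that rose were the myotubularins MTMR2, MTM1 and MTMR3, which act on 3-phosphates, with log2 fold changes of 0.34 to 0.54. MTM1 did not rise in replicate 2, with pairs of 0.854, -0.032 and 0.617 (adjusted p = 0.0295). MTMR3 was close to the threshold (adjusted p = 0.0417). INPP5B and the myotubularins are named here after their values were seen.

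Among AKT kinases and PDPK1, PDPK1 passed the test with a log2 fold change of 0.34 (adjusted p = 0.041), close to the threshold. The call was lost with DESeq2 and the block (adjusted p = 0.122) and without any 1 of the replicate numbers (adjusted p = 0.103, 0.155 and 0.113). AKT2 read 45.0, 136 and 91.3 CPM in DMSO and 40.3, 141 and 99.7 CPM in SAL (log2 fold change 0.02, adjusted p = 0.935). Of 17 AKT phosphatase and PP2A genes 2 rose and 2 fell. PPP1CB, a catalytic subunit of PP1, rose from 337, 204 and 308 CPM to 677, 373 and 639 CPM (0.98, adjusted p = 1.65e-06), and PPP2CB, a catalytic subunit of PP2A, rose by 0.47. PPP1CC fell by 0.38 and the PP2A subunit PPP2R2A, named after its values were seen, by 0.30.

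Of 12 tested modulators of AKT 2 rose and 2 fell. FKBP5, an androgen-induced immunophilin that scaffolds PHLPP on AKT, read 88.8, 105 and 148 CPM in DMSO and 860, 1243 and 1405 CPM in SAL. Every SAL library lay far above every DMSO library, with a 10.3-fold rise (log2 fold change 3.36, adjusted p = 1.84e-11). The chaperone gene CDC37 rose by 0.53 (adjusted p = 0.0114), with pairs of 0.244, 0.952 and 0.338. Without replicate 2 it stood at 0.28 (adjusted p = 0.0989), and the call was also lost without replicate 3 (adjusted p = 0.0693). SKP2, a ubiquitin ligase subunit, fell by 0.74 (adjusted p = 5.64e-05), and TRIB1, named after its values were seen, by 0.55.

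DEPTOR was 1 of 3 called among 11 tested genes of the mTOR complexes. MTOR itself read 49.2, 169 and 133 CPM in DMSO and 108, 323 and 288 CPM in SAL and rose 2.08-fold (log2 fold change 1.05, adjusted p = 1.07e-06), and TTI1, which helps assemble the kinase, fell by 0.31 (adjusted p = 0.049). The TTI1 call was lost with DESeq2 and the block (adjusted p = 0.259), with no filter on low counts (0.072), and without replicate 1 (0.062) or 3 (0.434). The transcript of the kinase was higher and that of its inhibitor lower in all 3 pairs. Of 17 tested genes of TSC and mTORC1 control 1 rose and 4 fell. SESN3, a stress sensor that restrains mTORC1, read 668, 1463 and 1539 CPM in DMSO and 344, 530 and 639 CPM in SAL (-1.23, adjusted p = 7.65e-07). DDIT4, another stress-induced inhibitor of mTORC1, fell by 0.39 (adjusted p = 0.0149, and 0.0765 with DESeq2 and the block), as did SESN1 by 0.40 and SESN2 by 0.56, the last pair named after their values were seen. TSC2, a subunit of the TSC complex, rose by 0.46 (adjusted p = 0.00559).

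Of 14 tested effectors of mTOR 6 rose and 1 fell. NDRG1, a known target of SGK1 and of androgen, read 12, 67.8 and 39.4 CPM in DMSO and 254, 1350 and 981 CPM in SAL, a 21.9-fold rise (log2 fold change 4.45, adjusted p = 2.64e-12). SGK1, a kinase related to AKT, rose 6.87-fold from at most 7.19 CPM in DMSO to between 18.1 and 39.2 CPM in SAL (adjusted p = 6.54e-08). Its relative SGK3, named after its values were seen, rose 2.05-fold (adjusted p = 1.27e-05). GRB10, an adaptor that dampens insulin signalling, fell from 176, 704 and 483 CPM to 93.7, 278 and 201 CPM (-1.17, adjusted p = 7.96e-07).

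Of 16 AKT substrates 4 rose and 1 fell. TBC1D4, which controls glucose transporter traffic, read 8.42, 30.9 and 28.1 CPM in DMSO and 45.2, 118 and 114 CPM in SAL (2.09, adjusted p = 6.65e-09). FOXO3, the transcription factor that AKT keeps out of the nucleus, rose by 0.70 (adjusted p = 0.00046) and the glycolytic regulator PFKFB2 by 0.57 (adjusted p = 0.000657). PIKFYVE rose by 0.43 and WEE1 fell by 0.68, both named after their values were seen. Of 19 tested genes known to respond to FOXO factors 2 rose and 4 fell, and the median log2 fold change was -0.14. CITED2 (0.74) and ERBB3 rose, while SESN3, SESN1, TXNIP (-0.53) and BCL6 (-0.30) fell, TXNIP and BCL6 again named after their values were seen.

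The genes whose levels over the 6 libraries were most like those of INPP4B were GGPS1 (Pearson r = 0.9996), SLC15A2 (0.9979) and APPBP2 (0.9942), on log2 CPM. All 3 rose, by 0.81, 3.52 and 1.32 on the log2 scale. For DEPTOR they were RP11-293M10.6 (0.9978), MYBL2 (0.9976) and LIF (0.9964), which fell by 1.72, 0.93 and 1.24. A likeness of this size was common, with 121 genes at an r of at least 0.95 for INPP4B and 144 for DEPTOR, and these r describe 6 libraries that share their replicate numbers and base composition. Some of the named genes had few reads. RP11-293M10.6 had 1, 13 and 5 reads in SAL and LIF 8, 35 and 17, and SLC15A2 had 22, 4 and 31 in DMSO.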

How the data were processed

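RNA-seq of 6 C4-2 libraries, performed 3 times independently per condition, was used. The authors trimmed the reads, mapped 1 read of each pair to hg19 with TopHat2 2.1.0 and Bowtie, and counted them per gene with HTSeq 0.11.2 on both strands together. Raw counts per gene symbol were deposited. Groups and replicate numbers come from the labels. Here 523 rRNA gene symbols were removed and filterByExpr left 16835 genes. SAL was compared with DMSO by edgeR 4.0.16 (TMM, robust quasi-likelihood test, Benjamini-Hochberg adjustment) in R 4.3.3 with the replicate number as a block, after the paired test in the methods of the paper. Libraries of the same number deviated together from their group means (r = 0.886, 0.856 and 0.739). The p-values rest on the spread left between these cultures once the block has taken out the differences between replicate numbers. With 3 pairs a gene has little spread of its own to measure, so the fit draws it towards that of all genes. Very small p-values therefore rest largely on this shared spread. CPM are relative to the TMM-scaled library size, changes per pair use a prior count of 2, and the SE is the log2 fold change divided by the root of F. In simulated data with these library sizes, more of the calls were unchanged genes than the threshold states. Far fewer genes were changed there than were called here, so that share need not hold for these data. Calls near the threshold are still less certain.

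The members and lists were chosen with earlier results of these data known. The named genes are the 9 members, up to 3 called genes per list with the smallest adjusted p, AKT2, FKBP5, PIK3CD, PIK3R2 and MTOR, the 3 genes most correlated with each of the 2 members of largest change, and KLK3, and a few further genes of the rule and lists are not reported here. Alternatives were DESeq2 1.42.0 with the block, its size factors in edgeR, no block, other filters on low counts (1 in all, 10 in every library), rRNA genes retained, and omission of each replicate number, and for ratios no length, and pairs. Positions, exon lengths and GC come from a GRCh37 annotation newer than that of the authors, which matched 33529 of 55765 symbols, with 1920 more through older names. The promoter windows are those of RefSeq, placed in GRCh37 by exact match.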

Additional observations from a re-analysis of the deposited data

How the results depend on the processing

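Without the replicate block, 0 members were up-regulated and 0 down-regulated, and of the 136 other list genes 1 was up-regulated (FKBP5) and 0 down-regulated, with 8 at an unadjusted p under 0.05, against 28 and 15 with the block. DESeq2 with the block called 8 of these list genes down-regulated. Leaving out each replicate number gave 1 up-regulated and 2 to 3 down-regulated members, and 14 to 29 up-regulated and 3 to 21 down-regulated list genes. The shares over all genes in these runs are not given, so these counts cannot be set against a background. PIK3R3 was lost without replicate 2 and without replicate 3. Without replicate 3, 13 of the genes named by the rule lost their call, PIK3CD, ERBB3 and INPP5J among them. Some of the genes named after their values were seen lost theirs too. Over the 3 omissions the log2 fold change turned sign, never past the test, for PHLPP1 (-0.017 to 0.093), PIK3CA (-0.12 to 0.171) and AKT2 (-0.046 to 0.089). The causes were not tested. The fold changes of INPP4B, PIK3R1 and DEPTOR kept their direction in every alternative, as did those of PIK3R3, PHLPP2, PIK3CB and AKT1. PHLPP2, PIK3CB and AKT1 passed the test in none of them. With 3 libraries per group no exact test of a ratio could pass the threshold, and DEPTOR rests on few reads.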
